A study of Mus musculus with 12 samples.

Results

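The genes that encode the subunits of the proteasome, together with its assembly chaperones and activator caps, were examined in 12 salivary tumors of mice with 3 p53 genotypes. The members are all probe sets whose single annotated gene symbol begins with Psma, Psmb, Psmc, Psmd or Psme directly followed by a digit, without the immunoproteasome genes Psmb8, Psmb9 and Psmb10. This rule gave 73 probe sets of 40 genes, out of 22626 probe sets that were not array controls and 12393 genes with a probe set of their own. It matched Psmc3ip, a partner protein in meiotic recombination, and Psme3ip1, a protein that binds the activator Psme3, by their letters only, so that 71 probe sets of 38 genes read proteasome genes proper. All counts below are over the 73. Psme2 was read only by a probe set with more than 1 symbol and is not a member.

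All mice carried the MMTV-Hras transgene (MMTV-ras in the sample labels), in which a viral promoter active in glandular epithelium drives an activated Ras. The WT group was MMTV-ras/p53+/+, the KO group MMTV-ras/p53-/-, and the MT group MMTV-ras/p53R172H/R172H, with both p53 alleles carrying the R172H change of the knock-in line. Per the study's methods the colony was kept on a mixed Balb/c and C57BL/6 background, the R172H allele having been brought in by crosses from a C57BL/6 line. The tumors came from adult mice, whose exact ages are not given in the sources used here, and received no treatment per the labels. The study reports that salivary tumors arose at a younger age in p53-null and R172H mice than in p53 wild-type mice. Genotype and age at onset therefore cannot be told apart here. Its work was restricted to males, apart from a small number of females in some analyses. Each group had 4 tumors, with 1 array for each tumor, and nothing in the labels says that tumors came from separate mice, so that p-values measure only the spread between these tumors. No sample of normal salivary gland was analysed here.

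The proteasome degrades proteins that carry chains of ubiquitin. Its core particle is a stack of rings of alpha and beta subunits, and the beta subunits Psmb5, Psmb6 and Psmb7 hold the proteolytic sites. The 19S regulatory particle caps the core: a base of ATPases (Psmc genes) and scaffold subunits unfolds the substrate, and a lid (Psmd genes) carries Psmd14, which removes the ubiquitin chain. Psme proteins form alternative caps. The transcription factor Nfe2l1 is known to raise the transcription of many subunit genes together when proteasome activity is short, through elements of the antioxidant response type in their promoters, and NF-Y acts at CCAAT boxes. p53 itself is a classical substrate of the proteasome, which it reaches through Mdm2. The level of the p53 gene was not analysed here.

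Promoter stretches are shown of 4 members that are described below and whose promoters hold a searched motif. Psme3 was taken for its difference between WT and KO tumors, and Psmb5 and Psmb6 as catalytic subunits, whatever their differences. Psmd4, a ubiquitin receptor, was taken for the next smallest adjusted p between WT and KO. Each line gives the 100 bases before the annotated transcription start from RefSeq (GRCm38.p6), 5′ to 3′ on the gene's strand, with the motif in capitals: CCAAT, here on the opposite strand, for Psme3 (chr11:101316113-101316212, plus strand, motif 14 bases before the start) and for Psmd4 (chr3:95042615-95042714, minus strand, 95 bases before it), and TGACNNNGC for Psmb5 (chr14:54617996-54618095, minus strand, 47 bases before it) and Psmb6 (chr11:70525257-70525356, plus strand, 9 bases before it).
Psme3: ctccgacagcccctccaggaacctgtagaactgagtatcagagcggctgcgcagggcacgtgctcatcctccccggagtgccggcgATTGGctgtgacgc
Psmb5: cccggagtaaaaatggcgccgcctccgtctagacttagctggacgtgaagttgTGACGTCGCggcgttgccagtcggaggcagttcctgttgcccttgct
Psmb6: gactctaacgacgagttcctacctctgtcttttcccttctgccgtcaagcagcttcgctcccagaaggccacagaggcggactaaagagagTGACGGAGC
Psmd4: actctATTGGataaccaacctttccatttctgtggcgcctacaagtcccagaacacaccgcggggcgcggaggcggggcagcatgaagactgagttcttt

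Of the 40 member genes, 33 had a promoter window of 300 bases in the RefSeq table, from 250 bases before the start to 50 after it. Searched on both strands, TGACNNNGC, a strict form of the antioxidant response element, was in the window of 6 genes (18.2%, against 14.8% of 17492 protein-coding genes): Psmb5, Psmb6, Psmc6, Psmd9, Psmd12 and Psme4. The looser TGANNNNGC, which every TGACNNNGC also matches, was in 19 (57.6%, against 45.5% of protein-coding genes), and CCAAT was in 14 (42.4%, against 42.3%). These are matches of letters in a short window, and shares near those of all genes are not a result about the members.

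Values are log2 levels, on which a difference of 1 is a 2-fold change. Levels of different probe sets cannot be set against each other on these arrays, so each probe set was compared between tumors only. The members were mostly well read: 58 of 73 (79.5%) lay above the median of all values, 6.93, in at least 4 tumors, against 53.9% of all probe sets, and 14 lay below it in all 12 tumors. Of the 40 genes, 21 had 1 probe set and 19 had several, up to 6 for Psmd11. 11 member probe sets have names ending in s_at or x_at, which mark possible hybridization to other transcripts.

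Several measures set tumors apart before any result. The 27 probe sets for poly-A controls, bacterial transcripts that can be added to RNA before labeling, had a mean level of 10.38 to 10.56 in MT1, MT2 and MT3 and of 3.98 to 4.23 in MT4 and the 8 WT and KO tumors. This parting, called the labeling batch below, rests on the control probes alone, since no label gives a batch. Because of it MT4 is set beside MT1 to MT3 in a part of its own below. MT differences elsewhere are over all 4 MT tumors unless said otherwise. The hybridization controls were at 10.04 to 10.15 in WT1, KO1, KO4 and MT4 and at 8.88 to 9.72 in the others, and the difference between the 3′ and 5′ probe sets of actin, which grows with RNA degradation, reached 1.05 in KO4, beside 0.17 to 0.58 across the remaining 11 tumors. The probe sets for 18S ribosomal RNA had a mean of 8.90 to 9.33 in WT1 to WT3, 7.51 in WT4, 7.36 to 8.03 in KO, 6.41 to 6.59 in MT1 to MT3 and 7.66 in MT4. Epithelial markers (7 of 7 measured) were at a mean of 9.34 to 10.76 (WT), 10.65 to 11.16 (KO) and 10.45 to 11.08 (MT), and salivary acinar markers (9 of 9) at 10.44 to 11.44 in WT, 8.55 to 9.70 in KO and 9.20 to 10.04 in MT. Macrophage markers (6 of 6) were at 9.75 to 10.21, 8.81 to 9.32 and 8.47 to 9.70, and those of B and plasma cells (4 of 5) at 10.06 in WT1 and at most 5.28 elsewhere. The part of these differences in the results below was not tested. In bulk tumor RNA, fewer cells of a type and less RNA per cell cannot be told apart.

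**Figure D1:**
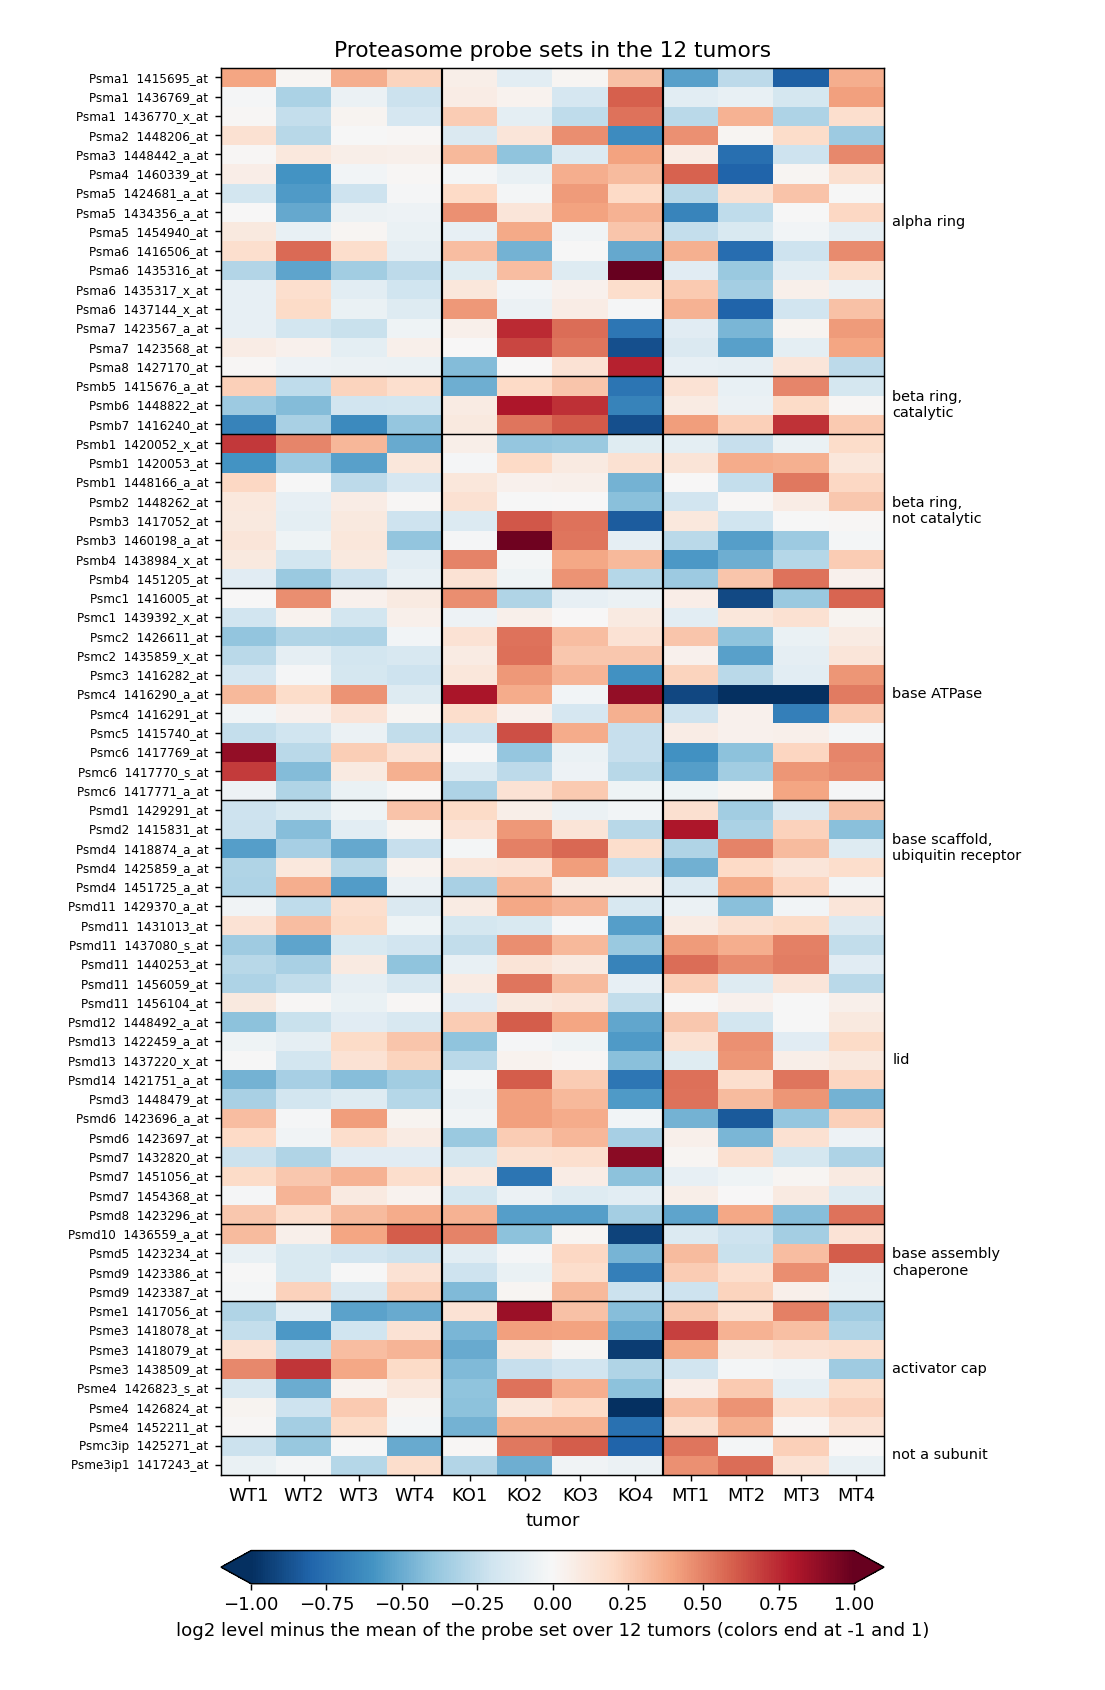
Level of each of the 73 probe sets (rows, grouped by role) in each of the 12 tumors (columns), as log2 level minus the mean of the probe set over the 12 tumors, with colors ending at -1 and 1. WT tumors vary least, KO2 and KO3 are mostly red where KO4 is blue, and Psmc4 1416290_a_at is darkest blue in MT1, MT2 and MT3.

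Between WT and KO tumors, which differ in whether p53 is present, the proteasome genes differed little. Only Psme3 1438509_at, which reads the REG gamma activator, passed the test, and it was higher in WT. That is 1 of 73 probe sets called by limma at an adjusted p under 0.05 (1.37%), against 4.57% of all probe sets, or 2.64% counting only those higher in WT. The median difference of the 73 (WT minus KO) was -0.13, against 0.02 for all probe sets, and 28 of 73 differences were above 0 (38.4%, against 52.6% of all). Part of this lean was shared by probe sets of like level: the 12197 that lay above the median of all values in at least 4 tumors had a median of -0.07 with 44.1% above 0, and the 58 members among them a median of -0.13 with 21 (36.2%) above 0. At an unadjusted p under 0.05, 4 members were higher in WT (5.48%, against 13.5% of all) and 10 lower (13.7%, against 10.5%), which is 19.2% of the members and 23.9% of all probe sets. No member differed by more than 1, which 4.3% of all probe sets did, and the 95% interval of 63 members (86.3%, against 75.8% of all) lay within 1 of 0.

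Psme3 1438509_at was at 5.79, 6.02, 5.70 and 5.50 in WT1 to WT4, at 4.86, 5.08, 5.12 and 5.01 in KO1 to KO4, and at 5.12, 5.29, 5.27 and 4.95 in MT1 to MT4. All 4 WT tumors lay above all KO and MT tumors, and all 12 values lay below the median of the arrays. The 18S ribosomal RNA was also highest in WT1 to WT3, with WT4 the lowest WT tumor in both, and its part in this difference was not tested. WT exceeded KO by 0.73 (SE 0.13, 95% interval 0.45 to 1.01, limma adjusted p = 0.0170), and the F test over the 3 genotypes had an adjusted p of 0.0311, the only member call there (1.37%, against 2.34% of all probe sets). At an unadjusted p under 0.05 the F test had 17 members (23.3%, against 22.3%). MT minus WT was -0.59 (adjusted p = 0.0652) and MT minus KO was 0.14 (adjusted p = 0.799). Another pair of probe sets of the gene, with all their values above the median of the arrays, did not share this pattern. Psme3 1418078_at was at 7.63 to 8.34 in WT, 7.68 to 8.61 in KO and 7.90 to 8.88 in MT, with a difference between WT and KO of -0.18 (95% interval -0.77 to 0.42, adjusted p = 0.732). Psme3 1418079_at was at 7.68 to 8.28, 6.99 to 8.04 and 8.03 to 8.32, with a difference of 0.46 (95% interval -0.02 to 0.95, adjusted p = 0.225). The call thus rests on the Psme3 probe set whose values lay below the median of the arrays. Where dim probe sets or all but 1 probe set per gene were left out, Psme3 1438509_at was itself left out and could not be called. The call between WT and KO was lost in the methods' t-test. It was kept in each fit that left out 1 tumor (limma adjusted p 0.0103 to 0.0482). The F test no longer called it without any 1 of WT1, WT3, MT1, MT3 or the 4 KO tumors.

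**Figure D2:**
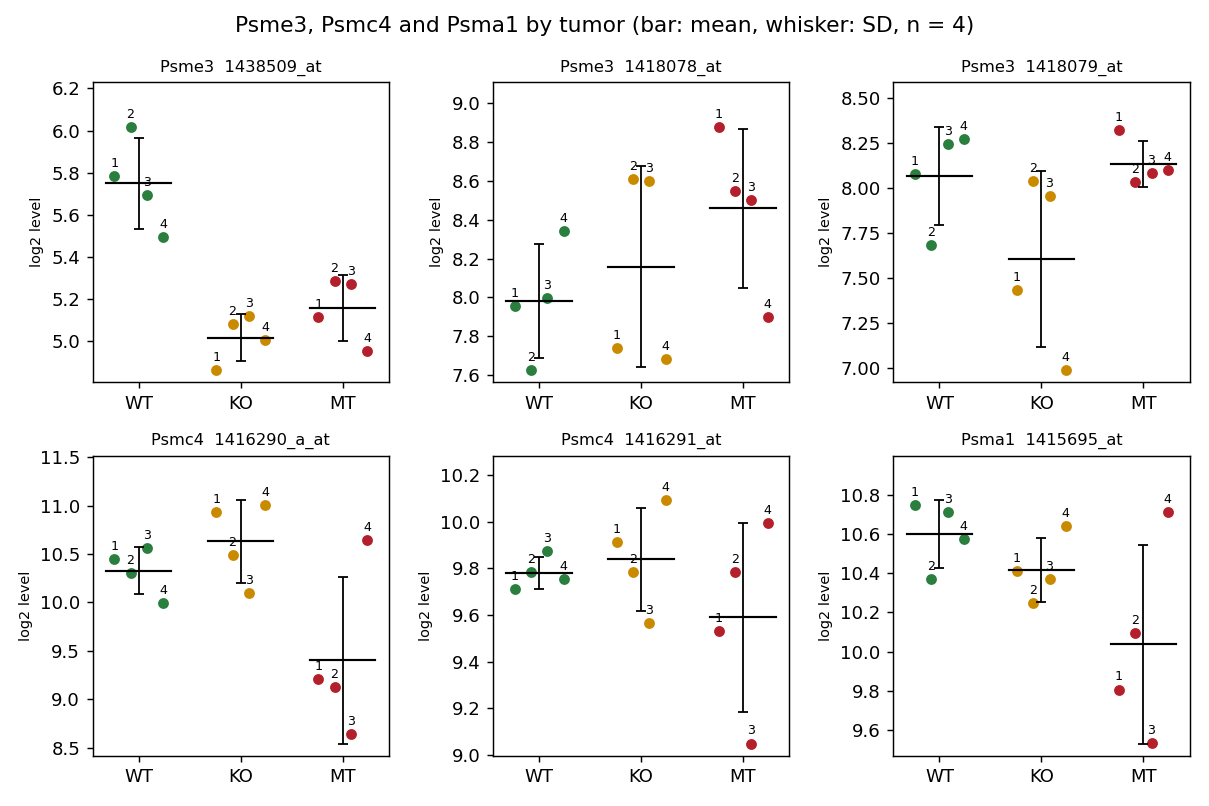
Log2 level in each tumor (points, numbered by replicate) of the 3 probe sets of Psme3, the 2 of Psmc4 and 1 of Psma1, with the mean (bar) and SD (whisker) of 4 tumors. Each panel has its own axis. Psme3 1438509_at parts WT from the other tumors, and in Psmc4 1416290_a_at and Psma1 1415695_at MT4 sits with the WT and KO tumors.

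The groups WT and KO did not overlap for 9 members (12.3%, against 14.5% of all probe sets), 3 higher in WT (4.11%, against 8.37%) and 6 lower (8.22%, against 6.1%). The lower ones included subunits of the base. Psmd4, which binds ubiquitin chains, was at 10.01, 10.24, 10.05 and 10.34 in the WT tumors and at 10.55, 11.07, 11.14 and 10.74 in the KO tumors by 1418874_a_at. The difference was -0.71 (SE 0.19, 95% interval -1.14 to -0.29, adjusted p = 0.0579) and missed the threshold. The other probe sets of Psmd4 were closer together, at -0.22 for 1425859_a_at and -0.17 for 1451725_a_at (adjusted p = 0.504 and 0.649), with overlapping groups. Both probe sets of Psmc2, an ATPase of the base, had all WT tumors below all KO tumors: 1426611_at was at 10.34 to 10.72 in WT and 10.88 to 11.29 in KO (difference -0.54, SE 0.16, adjusted p = 0.0694), and 1435859_x_at at 10.69 to 10.87 and 11.04 to 11.51 (difference -0.47, SE 0.15, adjusted p = 0.0896). Psma5 1434356_a_at of the alpha ring (-0.49, adjusted p = 0.138), Psmd11 1456059_at of the lid (-0.41, adjusted p = 0.128) and the dim Psma6 1435316_at (-0.82, adjusted p = 0.179) were the others. The last rests on KO4, at 6.18 beside 4.26 to 4.70 in the other KO tumors, and is -0.38 without it. Higher in WT without overlap were, besides Psme3, a pair of probe sets of the lid subunit Psmd7, 1451056_at (0.49, adjusted p = 0.108) and the dim 1454368_at (0.23, adjusted p = 0.192), while the dim 1432820_at of Psmd7 was at -0.45 (adjusted p = 0.194). Psma5, Psmd11 and Psmd7 are named for the separation of their groups, after their values were seen.

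**Figure D3:**
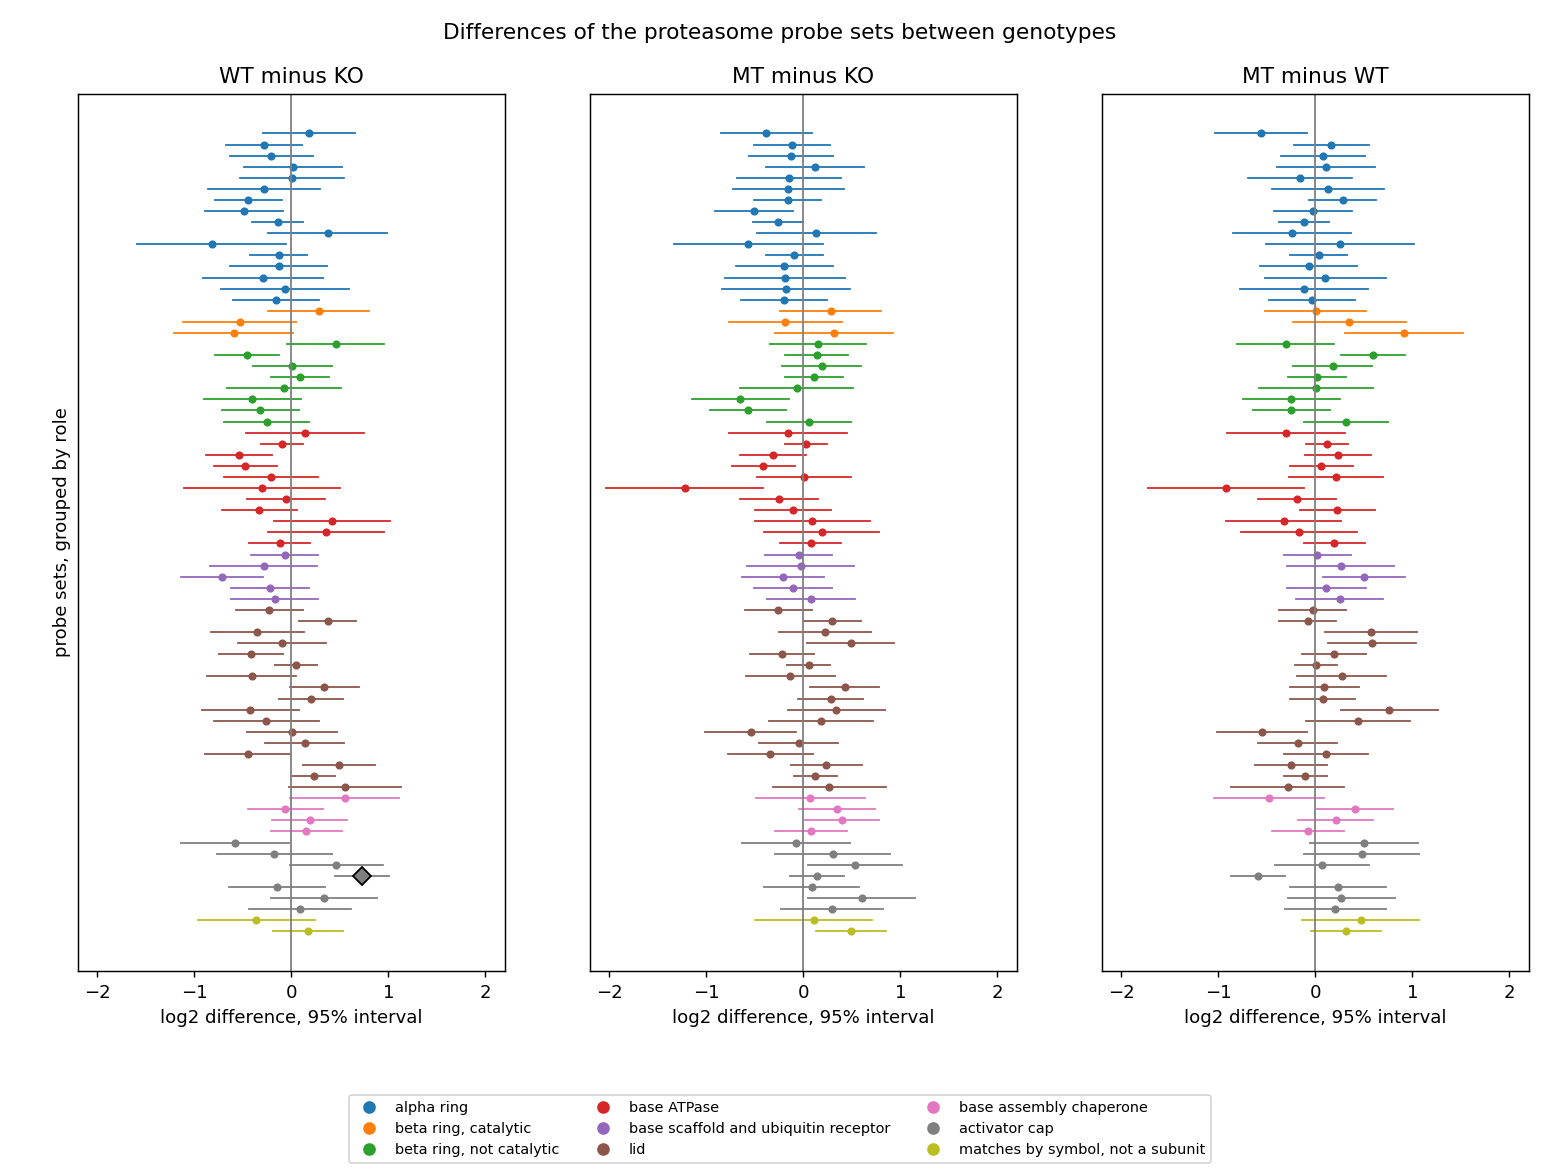
Difference between genotype means in log2 (points) with its 95% interval (lines) for the 73 probe sets, grouped by role from the alpha ring at the top to the caps and the 2 genes that are not subunits at the bottom. The diamond marks the adjusted p under 0.05. Most intervals cross 0 in each of the 3 panels, and the 1 diamond is Psme3 1438509_at in WT minus KO.

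MT and KO tumors, which differ in carrying mutant p53 or none, gave no called member. The count of 0 of 73 stands beside 0.00884% of all probe sets, and for no member were the groups apart (4.85% of all probe sets, 2.88% higher and 1.97% lower in MT). Even so, 14 members had an unadjusted p under 0.05 (19.2%, against 9.58% of all), 7 higher in MT (9.59%, against 5.01%) and 7 lower (9.59%, against 4.57%). Psma5 and Psmd11 each entered by more than 1 probe set. The counts take all 4 MT tumors, of which MT1 to MT3 also differ from the KO tumors in the labeling batch. Its part was not tested. The methods' t-test with adjustment called 0 as well. The median difference (MT minus KO) was 0.02, as over all probe sets, with 38 of 73 above 0 (52.1%, against 53.4% of all). The 95% interval of 67 members (91.8%, against 81.9% of all) lay within 1 of 0, so that changes above 2-fold were outside the interval for these.

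MT and WT tumors gave 0 called members (0.367% of all probe sets). 11 had an unadjusted p under 0.05 (15.1%, against 19.4% of all), 7 higher in MT (9.59%, against 8.97%) and 4 lower (5.48%, against 10.4%). No member differed by more than 1, as 3.21% of all did, and the 95% interval of 61 members (83.6%, against 77.7%) lay within 1 of 0. The median difference (MT minus WT) was 0.09, against -0.01 for all, and 47 of 73 were above 0 (64.4%, against 48.8% of all). Part of this lean too was shared by probe sets of like level. The 12197 above the median of all values in at least 4 tumors had a median of 0.05 with 54.6% above 0. The 58 members among them had a median of 0.11 with 40 (69%) above 0. The groups were apart for 7 members (9.59%, against 10.9% of all), 5 of them higher in MT (6.85%, against 4.44%) and 2 lower (2.74%, against 6.44%). The higher ones were Psmb7, Psmd14, Psmb6, the ATPase Psmc5 and the dim Psmb1 1420053_at, and the lower ones Psme3 1438509_at and Psmd7 1451056_at. WT tumors belong to both WT comparisons and KO tumors to both KO comparisons, so these values are not independent of each other.

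The catalytic subunits showed how the tumors were arranged. Psmb7, which has trypsin-like activity, was at 10.84, 11.19, 10.87 and 11.13 in WT1 to WT4, at 11.61, 12.04, 12.12 and 10.63 in KO1 to KO4, and at 11.93, 11.75, 12.24 and 11.77 in MT1 to MT4. All MT tumors, MT4 included, lay above all WT tumors, while KO4 lay below every WT tumor. MT minus WT was 0.91 (SE 0.28, 95% interval 0.30 to 1.52, adjusted p = 0.130) and WT minus KO was -0.60 (adjusted p = 0.220). Psmb6, which has caspase-like activity, was at 10.17, 10.10, 10.34 and 10.35 in WT, at 10.62, 11.35, 11.27 and 9.87 in KO and at 10.62, 10.48, 10.72 and 10.55 in MT. Here too MT lay above WT without overlap and KO4 was the lowest tumor of all. WT minus KO was -0.53 (SE 0.27, adjusted p = 0.247) and MT minus WT was 0.35 (adjusted p = 0.492). Psmb5, which has chymotrypsin-like activity and is the main target of proteasome inhibitor drugs, was at 10.61, 10.11, 10.59 and 10.53 in WT, at 9.88, 10.56, 10.64 and 9.64 in KO and at 10.51, 10.29, 10.86 and 10.19 in MT. Its groups overlapped in every comparison and WT minus KO was 0.28 (95% interval -0.24 to 0.80, adjusted p = 0.507). KO2 and KO3 were the upper pair of KO tumors in all 3 catalytic subunits. In the lid, the deubiquitinase Psmd14 resembled Psmb7, at 10.10 to 10.24 in WT, at 10.55, 11.18, 10.83 and 9.85 in KO1 to KO4 and at 10.75 to 11.12 in MT. MT minus WT was 0.76 (SE 0.23, 95% interval 0.26 to 1.26, adjusted p = 0.126) and WT minus KO was -0.42 (adjusted p = 0.289).

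**Figure D4:**
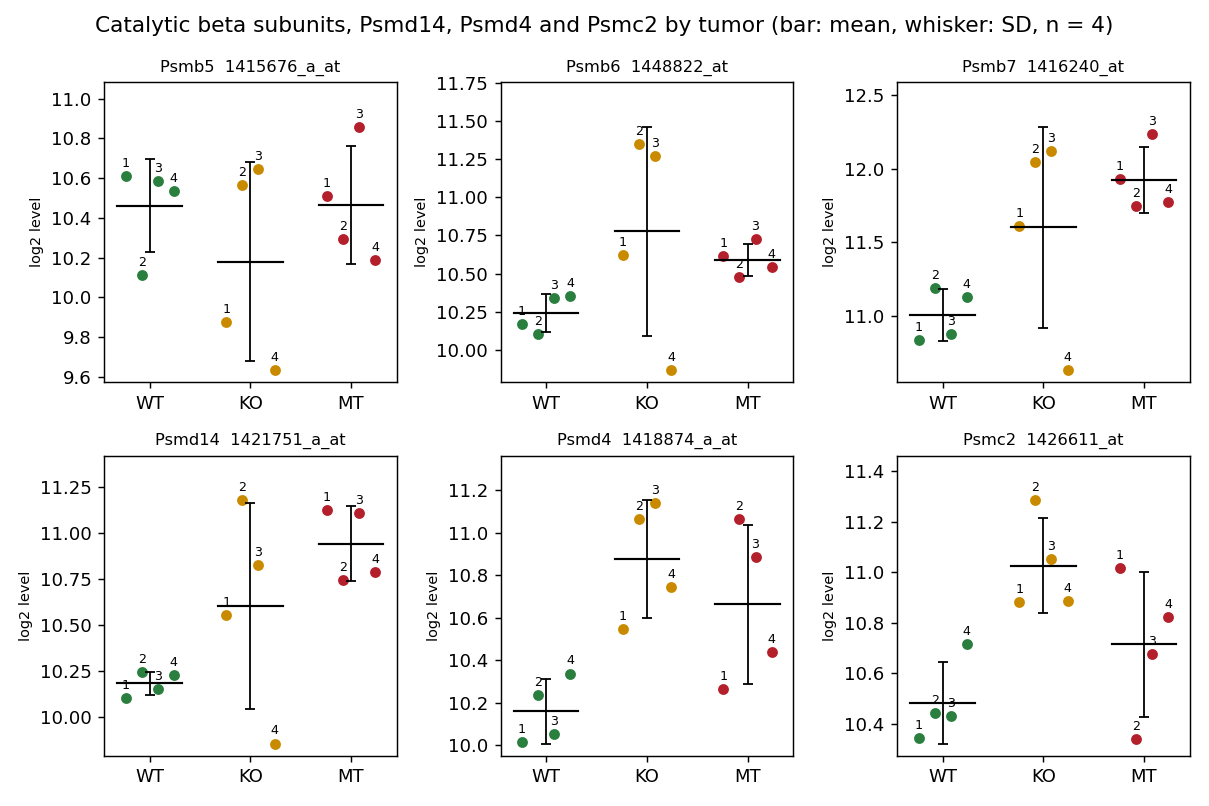
Log2 level in each tumor (points, numbered by replicate) of the 3 catalytic beta subunits, the deubiquitinase Psmd14, the ubiquitin receptor Psmd4 and the ATPase Psmc2, with the mean (bar) and SD (whisker) of 4 tumors. Each panel has its own axis. KO4 is the lowest of the 12 tumors in Psmb5, Psmb6, Psmb7 and Psmd14, and the KO whiskers are the longest there.

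The spread between tumors was widest in KO. The median SD of the 73 members was 0.17 among WT, 0.32 among KO and 0.27 among MT tumors, against 0.22, 0.25 and 0.23 over all probe sets. Among probe sets above the median of all values in at least 4 tumors, it was 0.18, 0.37 and 0.30 for the 58 members, against 0.27, 0.33 and 0.32 for all 12197, so that at like level members spread less in WT and slightly less in MT than other probe sets, and more in KO. WT had the smallest SD for 47 members (64.4%, against 37.7% of all). KO4 was the lowest of the 12 tumors for 25 members (34.2%, against 14.5% of all) and the highest for 7 (9.59%, against 11.6%). KO2 and KO3 lay above KO1 and KO4 for 39 members (53.4%, against 31.2% of all) and below them for 10 (13.7%, against 16.5%). Of the former, 7 were among the 7 cap probe sets, 13 among the 17 of the lid and 3 among the 3 catalytic ones, but only 3 among the 16 of the alpha ring, where 5 went the other way. These probe sets read 3 genes of the caps, 8 of the lid, 3 catalytic ones and 8 of the alpha ring, so some repeat a gene. KO1 and KO4 also had the higher hybridization controls of the KO tumors, 10.15 in each beside 9.40 in KO2 and 9.31 in KO3, and KO4 the largest 3′ to 5′ difference of actin. The part of these measures was not tested. Without KO4, 5 members were called between WT and KO: Psmb6 (-0.84), Psmb7 (-0.92), Psmd14 (-0.67) and Psmd12, all lower in WT, and Psme3 (6.85%, against 3.52% of all probe sets in that fit).

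Some members moved together from tumor to tumor. After the genotype means were taken out, the mean correlation over pairs of the 58 members above the median in at least 4 tumors was 0.21, against 0.01 over all 12197 such probe sets. Pairs of probe sets that read the same gene were included in both. These are descriptions over 12 tumors that share array quality, and KO4 enters each of them. Psmb6 followed the mean of the other genes most closely (r = 0.94 over 12 tumors), then the alpha ring subunit Psma7 (0.93 for 1423567_a_at), the beta ring subunit Psmb3 (0.91 for 1417052_at) and the lid subunit Psmd12 (0.88). Psmc4 1416291_at ran against it (r = -0.49). Psmc3ip, which the member rule matched by its letters only, was at 0.85, beside 0.83 for Psmb7 and 0.83 for Psmd14. The pattern was therefore not particular to genes of the proteasome proper. Psma7 1423567_a_at was at 10.46 to 10.64 in WT, at 10.73, 11.43, 11.24 and 9.96 in KO1 to KO4 and at 10.22 to 11.10 in MT, the same order of KO tumors as in Psmb7 apart from KO2 and KO3. Psma7, Psmb3 and Psmd12 are named for this correlation.

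In the role groups not yet described, and among the other alpha ring and cap members, none was called. In the alpha ring the median difference was -0.15 for WT minus KO, -0.17 for MT minus KO and 0.01 for MT minus WT, with 4, 2 and 8 of 16 above 0. In the beta ring outside the catalytic sites (8 probe sets), Psmb1 1420052_x_at had the widest WT minus KO difference, 0.46 (adjusted p = 0.247), but Psmb1 1420053_at was at -0.45 (adjusted p = 0.0996) and Psmb1 1448166_a_at at 0.01. Psmb3 1460198_a_at had the widest MT minus KO difference there, -0.65 (adjusted p = 0.388), with Psmb3 1417052_at at -0.07, and Psmb1 1420053_at the widest MT minus WT difference, 0.59 (adjusted p = 0.0923). The lid (17 probe sets) had medians of 0.01, 0.18 and 0.08 in the same order of comparisons, and its widest WT minus KO difference was that of Psmd8, 0.55 (SE 0.26, adjusted p = 0.229), whose tumors ran from 10.18 to 10.38 in WT, from 9.46 to 10.36 in KO and from 9.48 to 10.55 in MT. Its widest MT minus KO difference was that of Psmd6 1423696_a_at, -0.54 (adjusted p = 0.443). Of the chaperones that assemble the base, Psmd10, also known as gankyrin and as a binding partner of Mdm2, was at 7.75, 7.49, 7.83 and 8.04 in WT, at 7.93, 7.02, 7.45 and 6.51 in KO and at 7.30, 7.23, 7.09 and 7.57 in MT. Its groups overlapped in each comparison, and WT minus KO was 0.55 (95% interval -0.01 to 1.11, adjusted p = 0.218) and MT minus WT -0.48 (adjusted p = 0.330). Psmd9, another of these chaperones, had the widest MT minus KO difference of the group, 0.40 for 1423386_at (95% interval 0.01 to 0.78, not called after adjustment). Among the caps, Psme4 1426824_at, which reads PA200, had the widest MT minus KO difference, 0.60 (adjusted p = 0.473), and Psme1, a subunit of the interferon-inducible PA28 cap, was at -0.58 in WT minus KO (adjusted p = 0.194). Psmc3ip was at -0.36 in WT minus KO (adjusted p = 0.456) and Psme3ip1 at 0.49 in MT minus KO (adjusted p = 0.369). For MT1 to MT3 and for MT4 alone, MT minus KO was -0.74 and -0.37 in Psmb3 1460198_a_at. In the same order it was 0.49 and 0.12 in Psmd9 1423386_at, 0.62 and 0.54 in Psme4 1426824_at and 0.60 and 0.14 in Psme3ip1. Probe sets of 1 gene often pointed apart: of the 19 genes with several, all probe sets had the same sign in 10 genes for WT minus KO, 13 for MT minus KO and 6 for MT minus WT.

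MT4, the only MT tumor on the WT and KO side of the poly-A controls, lay apart from MT1 to MT3 in some members. The widest gap was in Psmc4 1416290_a_at, an ATPase of the base, at 9.21, 9.13 and 8.64 in MT1 to MT3 and 10.64 in MT4. KO tumors were at 10.94, 10.49, 10.09 and 11.00 and WT tumors at 10.44, 10.31, 10.57 and 10.00, so MT4 lay within their range and MT1 to MT3 below all of them. MT minus KO was -1.23 over the 4 MT tumors (SE 0.37, adjusted p = 0.319), -1.64 for MT1 to MT3 and 0.01 for MT4 alone. This was the only member difference beyond 1 in that comparison (1.37%, against 1.45% of all probe sets) and the only member in which MT4 was over 1 from the mean of MT1 to MT3 (1.37%, against 6.32% of all). Without MT4, Psmc4 1416290_a_at was called against KO (adjusted p = 0.0200) and against WT (-1.34, adjusted p = 0.0190), among 2 called members against KO (2.74%, against 1.04% of all) and 3 against WT (4.11%, against 3.54%). The other probe set, Psmc4 1416291_at, was at 9.53, 9.78 and 9.05 in MT1 to MT3 and 9.99 in MT4, with MT2 and MT4 inside the KO range of 9.57 to 10.09 and MT1 and MT3 below it, and MT minus KO was -0.25 (adjusted p = 0.733).

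MT1 to MT3 lay below all the other 9 tumors in 4 members (5.48%, against 2.18% of all probe sets) and above them in 1 (1.37%, against 2.48%). Besides Psmc4 these were Psma1 1415695_at, at 9.81, 10.09 and 9.53 beside 10.72 in MT4 and 10.25 to 10.75 in WT and KO tumors, Psmb4 1438984_x_at, at 10.04, 10.13 and 10.33 beside 10.87 in MT4, and Psmd6 1423696_a_at, at 9.33, 8.96 and 9.42 beside 10.05 in MT4. The 1 above was Psmd11 1440253_at, at 10.18, 10.10 and 10.13 beside 9.51 in MT4. Over all 4 MT tumors, MT minus WT was -0.56 for Psma1 1415695_at (adjusted p = 0.196) and -0.55 for Psmd6 1423696_a_at (adjusted p = 0.201), while Psmd6 1423697_at was at -0.18 (adjusted p = 0.617) and Psmb4 1451205_at at 0.31 (adjusted p = 0.409). MT4 was over 0.5 from the mean of MT1 to MT3 in 23 members (31.5%, against 24.3% of all), 16 above and 7 below, and 8 of the 16 were in the alpha ring. It lay above each of MT1 to MT3 in 27 members (37%, against 27.7% of all) and below each in 18 (24.7%, against 35.4%). In Psmb7 and Psmd14 MT4 stayed near the other MT tumors, both at -0.20 from the mean of MT1 to MT3. Mutant p53 and the labeling batch cannot be told apart in MT1 to MT3, and the within-batch values rest on MT4 alone.

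**Figure D5:**
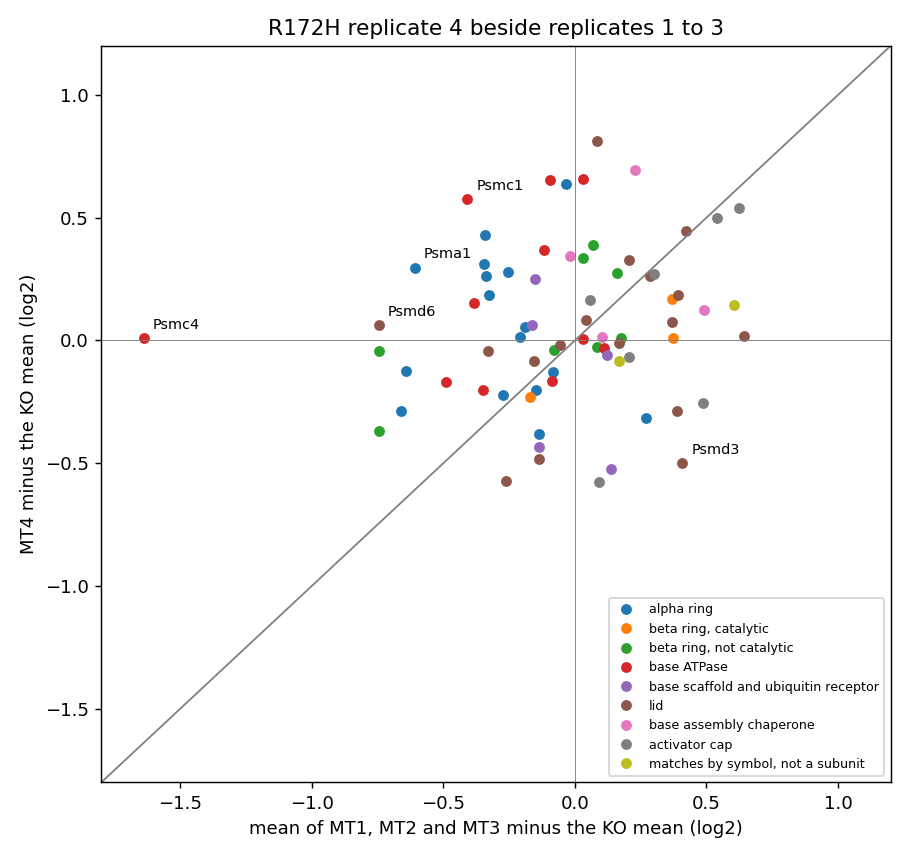
MT4 minus the KO mean (vertical axis) against the mean of MT1, MT2 and MT3 minus the KO mean (horizontal axis), in log2, for the 73 probe sets colored by role. The diagonal marks equal differences. Psmc4 1416290_a_at lies at -1.64 on the horizontal axis and at 0.01 on the vertical one.

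Genes that work with the proteasome were read by 42 probe sets of 25 genes, and 2 of these were called between WT and KO, both higher in WT, a share at the background (4.76%, against 4.57% of all probe sets). There were 0 calls in MT minus KO and in MT minus WT (0.00884% and 0.367% of all probe sets). At an unadjusted p under 0.05 there were 9 of 42 in WT minus KO, against 23.9% of all probe sets. There were 6 in MT minus KO, against 9.58%, and 9 in MT minus WT, against 19.4%. The F test over the 3 genotypes called 1, Sem1 1418574_a_at (2.38%, against 2.34% of all). Ngly1, the glycanase that matures Nfe2l1, was at 8.28, 8.09, 8.20 and 8.38 in WT, at 7.39, 7.20, 7.91 and 7.70 in KO and at 7.81, 7.83, 8.03 and 7.71 in MT. All WT tumors lay above all KO and MT tumors, with WT minus KO at 0.69 (SE 0.15, adjusted p = 0.0305) and MT minus WT at -0.39 (adjusted p = 0.195). Ubqln2, a shuttle that brings ubiquitylated proteins to the proteasome, was at 6.44 to 6.86 in WT, 5.84 to 6.17 in KO and 6.25 to 6.56 in MT by 1420844_at (WT minus KO 0.58, SE 0.12, adjusted p = 0.0241). All values of 1420844_at lay below the median of the arrays, and it was not tested where dim probe sets were left out. The other probe sets of Ubqln2 were at 0.48 (1450021_at, adjusted p = 0.220) and 0.16 (1456627_at, adjusted p = 0.343). Both calls were lost in the methods' t-test, in fits to only the 8 tumors compared, and without WT1, WT3 or KO2, and that of Ngly1 also without KO1.

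Sem1, a small subunit of the 19S lid whose symbol the member rule does not match, was at 9.96, 9.79, 10.37 and 9.44 in WT, at 10.56, 10.14, 10.35 and 10.54 in KO and at 9.40, 9.16, 9.47 and 9.45 in MT by 1418574_a_at. All MT tumors, MT4 included, lay below all KO tumors, and the lowest WT tumor lay among the MT tumors. The F test had an adjusted p of 0.0364, with MT minus KO at -1.03 (SE 0.18, 95% interval -1.42 to -0.63, adjusted p = 0.127), WT minus KO at -0.51 (adjusted p = 0.118) and MT minus WT at -0.52 (adjusted p = 0.164). With the labeling batch as a block the F call was lost. MT minus KO was -0.95 there, a value that rests on MT4 alone among the MT tumors. The F call was also lost in the setting of the methods' t-test, where an analysis of variance was used (adjusted p = 0.0713). The F call was kept without WT2, WT4 or MT4, and was lost without any 1 of the other 9 tumors (adjusted p 0.0204 to 0.0891 over the 12 fits). The other probe set, Sem1 1418575_at, was at 10.29 to 11.14 in MT and 10.82 to 11.03 in KO, with MT minus KO at -0.20 (adjusted p = 0.752).

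Nfe2l1 itself was at 8.60, 8.41, 8.62 and 8.75 in WT, at 8.70, 9.67, 9.17 and 8.93 in KO and at 8.96, 9.47, 9.35 and 8.59 in MT. Its WT minus KO difference was -0.52 (adjusted p = 0.189) and it was highest in KO2 and in MT2. Nfe2l2, the related factor of the oxidant response, was at 0.17 (adjusted p = 0.682). Pomp, the chaperone that completes the core particle, was at 11.00, 11.02, 11.08 and 11.40 in WT and at 11.52, 11.65, 11.68 and 11.37 in KO, with 1 WT tumor reaching into the KO range (difference -0.43, SE 0.13, adjusted p = 0.0776). Psmf1, an inhibitor of the core, had 4 probe sets with WT minus KO between -0.29 and -0.09 (adjusted p 0.575 to 0.839).

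The immunoproteasome subunits, which replace the catalytic subunits under interferon, varied widely between tumors of each genotype, and none was called. Psmb8 was at 9.34, 8.81, 8.11 and 8.52 in WT, at 8.79, 9.51, 7.11 and 7.92 in KO and at 7.96, 8.79, 6.62 and 8.75 in MT (WT minus KO 0.36, 95% interval -0.88 to 1.60, adjusted p = 0.739). Psmb9 was at 9.05, 7.75, 7.42 and 7.20 in WT, at 6.98, 8.02, 6.04 and 7.66 in KO and at 7.09, 7.79, 5.82 and 7.28 in MT (WT minus KO 0.68, adjusted p = 0.473). KO3 and MT3 were the lowest tumors of their groups in both, whereas KO3 and MT3 were the highest of their groups in Psmb5 and Psmb7. Interferon response genes (6 of 8 measured) had a mean of 7.58, 6.68, 6.50 and 6.94 in WT, 7.70, 8.94, 6.41 and 7.45 in KO and 6.44, 7.16, 6.37 and 6.90 in MT, with KO3 and MT3 again the lowest and KO2 the highest of the 12. Markers of T and NK cells (6 of 6) were at 7.57 in WT1, the highest WT tumor in Psmb8 and Psmb9, and at 5.81 to 6.23 in the other 11. The part of these lists in the immunoproteasome values was not tested. Psmb10 ran from 7.77 to 8.91 over the 12 tumors (WT minus KO 0.24, adjusted p = 0.572).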

How the data were processed

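RNA from 12 tumors was hybridized to Affymetrix mouse arrays, with 1 array per tumor. Per the study's methods, the authors collated the deposited log2 values with RMA in BRB-ArrayTools. The submitters' processing notes name RMA and MAS5 without saying which made the table. Array medians were 6.85 to 6.97 and no normalization was added. Gene symbols came from the platform annotation, in which 20380 of 22626 probe sets had 1 symbol and 691 several. A mean for each genotype was estimated from all tumors by limma (version 3.58.1, R version 4.3.3), which left 9 residual degrees of freedom. Tests were 2-sided, p-values were adjusted by the method of Benjamini and Hochberg over the 22626 probe sets, and the threshold was 0.05. The number of arrays limits the precision. On simulated data for WT against KO over 22626 probe sets, 71 of 100 shifts of log2 1 and 92 of 100 of log2 2 were recovered, with 6 false calls.

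The members and lists were chosen with earlier results of these data known. Genes named were members called in any test, the widest difference of each role group in each comparison, and Psmb5, Psmb6, Psmb7, Psmd4, Psmd10, Psmd14 and Psme3. Of the partner genes, those called and Nfe2l1, Nfe2l2, Psmf1, Pomp, Psmb8, Psmb9 and Psmb10 were named. Others were added after their values were seen. The deviations of tumors with equal numbers correlated above 0.1 in only 6 of 12 pairs, and the numbers were therefore not used to pair tumors. As alternatives, dim probe sets were left out, and the fits were repeated with array centering, cyclic loess, 2-group fits, a variance trend, array weights, blocks, other thresholds, 1 probe set per gene, a plain t-test and each tumor left out. Promoters came from RefSeq (GRCm38.p6).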

Additional observations from a re-analysis of the deposited data

Results flagged for a closer look

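Within groups of 4 tumors, 75 sets of values of the named probe sets were examined for a tumor far from the other 3, measured as its gap to the nearest tumor divided by the range of the group. In 2 of them the ratio was above Dixon's 95% critical value, and chance gives about 1 such group in 20. Psmb5 1415676_a_at was at 10.11 in WT2 beside 10.53 to 10.61 in the other WT tumors (ratio 0.849). Psmd4 1425859_a_at was at 9.12 in MT1 beside 9.72 to 9.80 in the other MT tumors (ratio 0.884).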

How the results depend on the processing

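Psme3 1438509_at was the only member called for WT minus KO with cyclic loess and when a block stood for the labeling batch. The count for that comparison was 0 with dim probe sets left out and 0 with 1 probe set per gene, settings that leave out Psme3 1438509_at itself. It was 0 in the methods' t-test (0.0442% of all probe sets) and 0 at an adjusted p under 0.01 (0.27% of all). It was 5 under 0.10 (6.85%, against 11.2% of all) and 9 with array weights (12.3% of members, against 14.5% of all probe sets). It ran from 1 to 5 with 1 tumor left out, and was 5 without KO4 (6.85%, against 3.52% of all). It was 4 without MT2 (5.48%, against 4.13% of all), namely Psmc2 by 2 probe sets, Psmd4 and Psme3. It was 3 without WT4 (4.11%, against 6.01% of all), namely Psmb1 by 2 and Psme3. For MT minus KO it was 0 to 2 with 1 tumor left out (2 without MT4: Psmb4 and Psmc4, 2.74%, against 1.04% of all). For MT minus WT it was 1 with cyclic loess (Psme3, 1.37%, against 0.628% of all) and 14 with array weights (19.2%, against 22% of all). It was 2 under 0.10 (2.74%, against 2.73%), and 0 to 3 with 1 tumor left out. Without MT4 it was 3 (Psma1, Psmc4 and Psmd6, 4.11%, against 3.54%). It was 2 without WT4 (2.74%, against 2.55%) and 1 without KO4 (1.37%, against 0.522%). For the F test it was 0 with dim probe sets left out and 0 with 1 probe set per gene, which again leave out Psme3 1438509_at. It was 0 in the methods' t-test (0.676% of all) and under 0.01 (0.0707% of all), and 2 under 0.10 (2.74%, against 6.71%). With array weights it was 15 (20.5%, against 22.4% of all), and with 1 tumor left out 0 to 5. It was 5 without MT4 (6.85%, against 5.86%), 2 without WT4 (2.74%, against 3.96%) and Psmb7 alone without KO4 (1.37%, against 1.29%). It was 0 without WT1, WT3, KO1, KO2, KO3, MT1 or MT3. The cause was not tested, apart from the fewer probe sets or tumors that these settings hold.

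With a replicate block, 2 members were called for WT minus KO (2.74%, against 4.5% of all), Psmd4 1418874_a_at and Psme3. No other count of members changed by over 1.5 times. The F call of Sem1 missed the threshold there (adjusted p = 0.0505). Nothing in the labels says that the replicate numbers pair tumors.

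The median differences moved by at most 0.096 under the settings run. The SD of the member median between tumors was 0.12, which is a spread of single tumors and not of a difference between groups. The widest move took MT minus WT from 0.09 to 0.19 with the labeling batch as a block, a value that rests on MT4 alone. With 1 tumor left out they ran from -0.16 to -0.07 (WT minus KO), -0.06 to 0.09 (MT minus KO) and 0.03 to 0.13 (MT minus WT). MT minus KO, near 0, was below 0 without KO1, KO4, MT1, MT3 or MT4, with dim probe sets left out and with array weights.

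No called difference turned its sign. With the labeling batch as a block, and equally with MT4 alone for MT, MT minus KO became 0.011 for Psmc4 1416290_a_at, 0.064 for Psmd4 1425859_a_at, -0.060 for Psmd4 1451725_a_at, 0.061 for Psmd6 1423696_a_at, -0.26 for Psme3 1418078_at and -0.066 for Psme3 1438509_at. MT minus WT became 0.11 for Psma1 1415695_at, -0.27 for Psmb5, 0.31 for Psmc4 1416290_a_at and -0.080 for Psme3 1418078_at. Psmb5 was also -0.054 with arrays centered, and array weights gave -0.091 for Psmd10 in MT minus KO and -0.031 for Psme3 1418079_at in MT minus WT. Leaving out 1 tumor turned the sign of other differences. In MT minus KO, Psmb6 was at -0.18 in the main fit and ran from -0.49 to 0.0048, turning without KO2. Psmb7 was at 0.32 and ran from -0.0043 to 0.49, turning without KO4. The others in MT minus KO ran from -0.22 to 0.054 for Psmd4 1425859_a_at, -0.041 to 0.18 for Psmd4 1451725_a_at and -0.17 to 0.31 for Psmd10. In MT minus WT they ran from -0.13 to 0.093 for Psmb5 and -0.063 to 0.13 for Psme3 1418079_at.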
